A study of Mus musculus with 49 samples.

Results

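Calcineurin and the calcium/calmodulin-dependent (CaM) kinases were followed in the neocortex of TDP-43 mice through 9 genes, taken by symbol from the 45252 genes of the count table. They encode 3 calcineurin subunits (Ppp3ca, Ppp3cb and Ppp3r1), both CaM kinase kinases (Camkk1 and Camkk2) and 4 CaM kinases (Camk1, Camk2a, Camk2b and Camk4). The set was chosen by the counts of Camkk2 and Ppp3r1, which were known to be much lower in the bigenic mice, so levels of these genes in bigenic against control mice are described here without a test. All 9 passed the filter on low counts, as did 18220 genes in all.

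When calcium enters a neuron it binds calmodulin, and calcium-loaded calmodulin switches on both a phosphatase and a family of kinases. Calcineurin, the phosphatase, pairs a catalytic subunit (Ppp3ca or Ppp3cb in neurons) with the small calcium-binding regulatory subunit Ppp3r1, and dephosphorylates NFAT transcription factors and proteins of the synapse. CaM kinase kinases phosphorylate and activate Camk1 and Camk4, and Camkk2 also phosphorylates AMPK, the cellular energy sensor, while Camk2a and Camk2b form the CaMKII holoenzyme that is abundant in excitatory synapses and is needed for long-term potentiation.

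Bigenic rNLS8 mice carry NEFH-tTA, a doxycycline-repressed activator driven by the promoter of the neurofilament heavy chain, together with tetO-hTDP-43ΔNLS, a human TDP-43 that lacks the nuclear localization signal, so the transgene is directed to neurons. Control mice were monogenic for tetO-hTDP-43ΔNLS and lack the activator, and all mice had a mixed C57BL/6J × C3H/HeJ background. Groups were ctrl PBS (17 control mice given PBS, 10 females and 7 males), TDP-PBS (10 rNLS8 mice given PBS, 4 females and 6 males), TDP10 + 12 (10 rNLS8 mice vaccinated with TDP-43 peptides 10 and 12, 6 females and 4 males) and TDP15 (12 rNLS8 mice vaccinated with the phosphorylated peptide 15, 5 females and 7 males). Injections of 40 µg of peptide conjugated to ovalbumin, or of PBS in its place, began at 8 weeks of age. Mice received 5 before and 1 after doxycycline was withdrawn from every mouse at 25.5 weeks. Neocortex was taken 3 weeks later, at 28.5 weeks. Vaccinated mice thus differed from TDP-PBS mice also in the carrier protein. No group of vaccinated control mice is part of these 49 libraries, so vaccination could be compared only within rNLS8 mice.

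Libraries held 17775738 to 21033608 counts per mouse, and 3 counts correspond to 0.139 to 0.165 CPM (counts per 1000000, with library totals scaled by TMM). Neuron markers were high in all 49 mice, with a summed level of Rbfox3, Snap25, Syt1, Tubb3 and Map2 of 5276 to 6424 CPM in ctrl PBS and 3509 to 4401 CPM in rNLS8 mice. Markers of tissue beside neocortex varied between mice of the same group. The striatal marker Drd1 spanned 12.5 to 49.3 CPM in TDP-PBS and 9.14 to 28.5 CPM in TDP15, and Eomes, a marker of the olfactory bulb in adult brain, exceeded 2 CPM in 9 mice, of which 4 were ctrl PBS, 0 TDP-PBS, 2 TDP10 + 12 and 3 TDP15. In mouse 301 (TDP10 + 12) Gfap, the astrocyte filament gene, reached 1133 CPM, the highest of all mice. Counts of genes that separate the genotypes and of pathway genes are therefore also given without these mice.

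The catalytic subunit Ppp3ca, the most abundant calcineurin gene by counts, lies at chr3:136669714-136937727 (GRCm38.p6, plus strand). In ctrl PBS it ranged from 698.7 to 974.5 CPM with a median of 828.1. In TDP-PBS the lowest mouse had 425.8, the median was 516.7 and the highest 564.9 CPM. TDP10 + 12 mice spanned 431.3 to 586.3 CPM around a median of 484.4, and TDP15 mice 434.7 to 529.2 CPM around 475.4. Every rNLS8 mouse lay under every control mouse, and the 3 rNLS8 groups overlapped each other. The edgeR log2 fold changes against ctrl PBS were -0.69 ± 0.05 (SE), -0.74 ± 0.05 and -0.78 ± 0.04 in TDP-PBS, TDP10 + 12 and TDP15, so the group means stood 38.1%, 40.0% and 41.7% below that of the control mice. Because these are bulk libraries, fewer cells that express a gene and less RNA per cell cannot be told apart in this and all following values.

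Ppp3cb, the other neuronal catalytic subunit, lies at chr14:20499364-20546573 (minus strand). Control mice had 186.2 to 221.0 CPM (median 199.4). TDP-PBS mice had 89.9 to 126.4 CPM (median 115.1), TDP10 + 12 mice 98.7 to 137.9 (median 113.4) and TDP15 mice 97.2 to 119.8 (median 110.9). Here too the genotypes did not overlap, with log2 fold changes of -0.88 ± 0.05, -0.78 ± 0.05 and -0.85 ± 0.05.

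Ppp3r1, which encodes the regulatory subunit that both catalytic subunits need, lies at chr11:17159298-17200380 (plus strand). Its level was 373.7 to 497.1 CPM in ctrl PBS, with a median of 406.2. The TDP-PBS group ran from 197.1 to 264.5 CPM (median 238.3), the TDP10 + 12 group from 213.7 to 268.0 (median 228.9) and the TDP15 group from 213.1 to 255.6 (median 237.8). The lowest control mouse was thus above the highest rNLS8 mouse by more than the whole range of the rNLS8 groups, whose means of 234.1 ± 21.8 (SD, n = 10), 235.6 ± 19.0 (n = 10) and 236.1 ± 12.6 CPM (n = 12) were nearly the same. Log2 fold changes were -0.82 ± 0.04, -0.81 ± 0.04 and -0.81 ± 0.04. In the GENCODE M21 annotation Ppp3r1 shares bases with Wdr92 on the same strand, but Wdr92 reached at most 5.64 CPM in control and 7.34 CPM in rNLS8 mice, a small part of the Ppp3r1 level.

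Of the kinase kinases, Camkk2 (chr5:122718380-122779522, minus strand) differed most between the genotypes among the 9 genes. Control mice had 245.8 to 326.9 CPM, with a median of 277.9. TDP-PBS mice had 104.0 to 147.1 CPM (median 132.0), TDP10 + 12 mice 91.8 to 132.5 (median 119.9) and TDP15 mice 108.0 to 141.6 (median 124.2). All 32 rNLS8 mice were below all control mice, and the lowest of them was mouse 301. Log2 fold changes of -1.09 ± 0.05, -1.23 ± 0.06 and -1.17 ± 0.05 put the group means 53.1%, 57.5% and 55.7% below ctrl PBS, and 102, 63 and 88 of the 18220 tested genes had a lower log2 fold change. Camkk2 was chosen on this difference, so its rank only describes it.

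Its paralog Camkk1 (chr11:73016043-73042073, plus strand), which activates the same kinases, did not separate the genotypes. It ranged from 120.2 to 168.1 CPM in ctrl PBS (median 154.6). TDP-PBS mice spanned 111.5 to 182.6 CPM around a median of 139.6, TDP10 + 12 mice 114.6 to 156.2 around 130.4 and TDP15 mice 120.2 to 177.7 around 143.5. Of the 32 rNLS8 mice, 5 lay below and 2 above every control mouse. Its log2 fold changes were -0.08 ± 0.06, -0.18 ± 0.06 and -0.04 ± 0.06.

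The kinases downstream of them were split in the same way. Camk4 (chromosome 18, plus strand), a nuclear kinase that phosphorylates CREB, had 161.7 to 261.7 CPM in ctrl PBS (median 190.8). TDP-PBS mice had 85.8 to 148.6 CPM (median 108.4), TDP10 + 12 mice 101.1 to 129.3 (median 113.4) and TDP15 mice 79.6 to 149.7 (median 106.3). The genotypes stayed apart, though with a narrow gap between 149.7 and 161.7 CPM, and the log2 fold changes were -0.83 ± 0.08, -0.82 ± 0.08 and -0.87 ± 0.08. Camk1 (chr6:113334124-113343922, minus strand), a cytosolic kinase, had 34.9 to 48.8 CPM in ctrl PBS (median 40.1) and 33.0 to 47.9 CPM over the rNLS8 mice (median 42.3). Its groups overlapped throughout and its log2 fold changes were 0.03 ± 0.05, 0.01 ± 0.05 and 0.05 ± 0.05.

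Both CaMKII genes were lower in rNLS8 mice by less than calcineurin. Camk2a (chromosome 18, plus strand), the alpha subunit, had 3641 to 5549 CPM in ctrl PBS (median 4591). TDP-PBS mice had 2326 to 3709 CPM (median 3242), TDP10 + 12 mice 1947 to 3663 (median 3014) and TDP15 mice 2700 to 3481 (median 3048). A single control mouse, 280, with the highest Eomes level (24.5 CPM), lay below the highest TDP-PBS and the highest TDP10 + 12 mouse, and the lowest rNLS8 value was again mouse 301. Log2 fold changes were -0.52 ± 0.07, -0.62 ± 0.07 and -0.57 ± 0.07, and without mouse 301 the TDP10 + 12 value moved by 0.06. Camk2b (chr11:5969629-6066357, minus strand), the beta subunit that binds actin, had 820.8 to 1008 CPM in ctrl PBS (median 887.2) and 571.9 to 747.7 CPM in rNLS8 mice (median 682.2), with no overlap. Its log2 fold changes were -0.40 ± 0.04, -0.36 ± 0.04 and -0.41 ± 0.03.

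**Figure D1:**
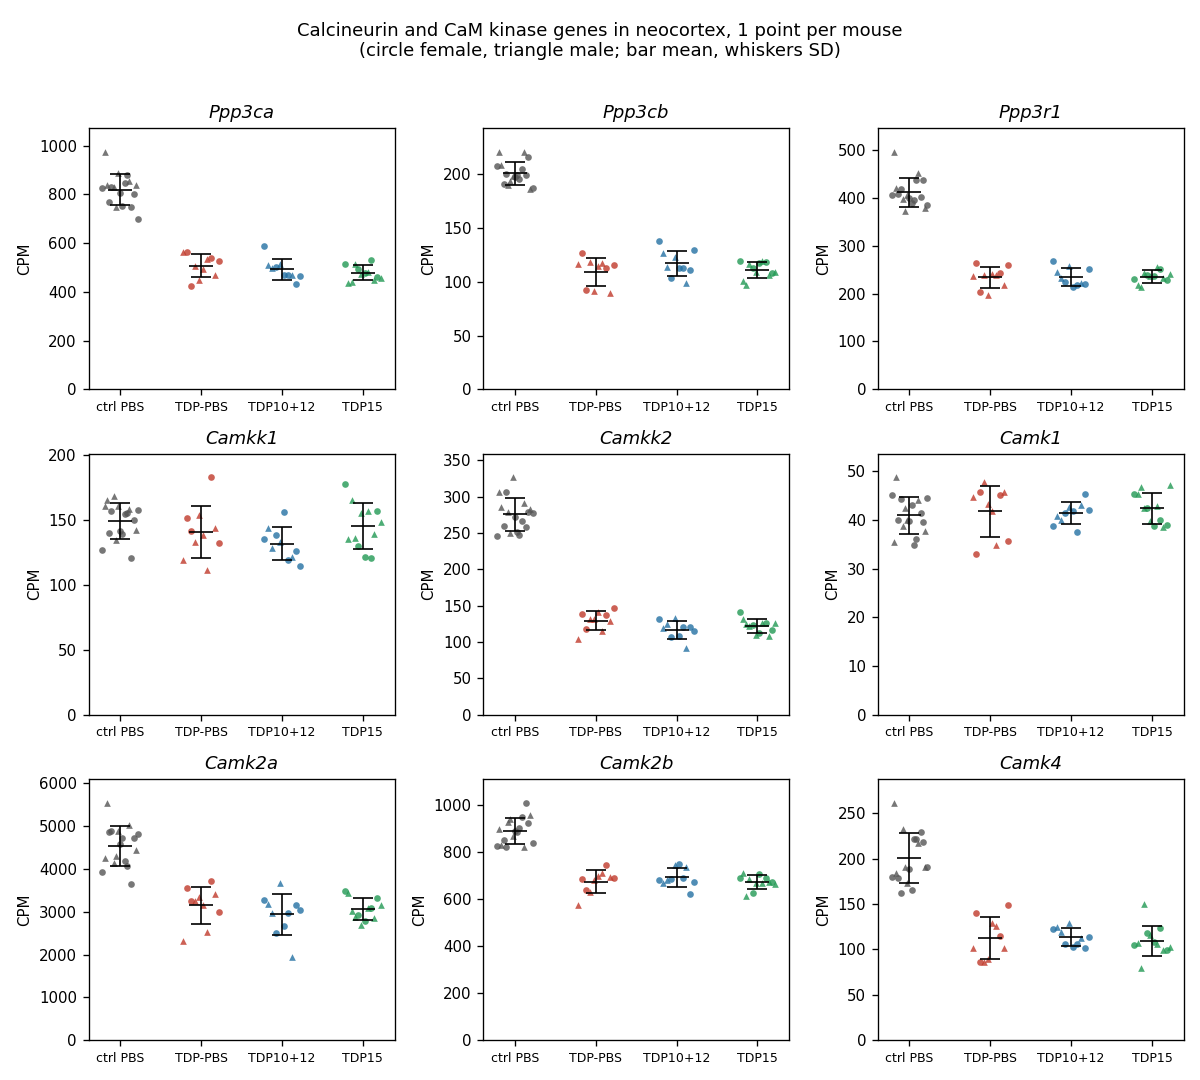
CPM of the 9 genes in each of 49 mice by group, with females as circles, males as triangles, the mean as a bar and the SD as whiskers; each vertical axis starts at 0. For Camkk2 the control mice sit between 245.8 and 326.9 CPM and the rNLS8 mice between 91.8 and 147.1 CPM, while Camkk1 and Camk1 overlap between all groups.

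For 6 of the 9 genes (Camkk2, Ppp3ca, Ppp3cb, Ppp3r1, Camk2b and Camk4) every rNLS8 mouse was thus below every control mouse, as for 1.64% of all genes tested. Since 2 of these genes chose the set, nothing is read from the difference between these shares. Without the 9 mice with Eomes over 2 CPM, mouse 280 among them, Camk2a joined them and the count was 7. The median log2 fold change of the 9 genes was -0.69, -0.74 and -0.78 in TDP-PBS, TDP10 + 12 and TDP15, and that of all genes tested was 0.00 in each. The choice of the set bears on these medians too, so nothing is read from their difference. The 3 comparisons share the same 17 control mice.

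**Figure D2:**
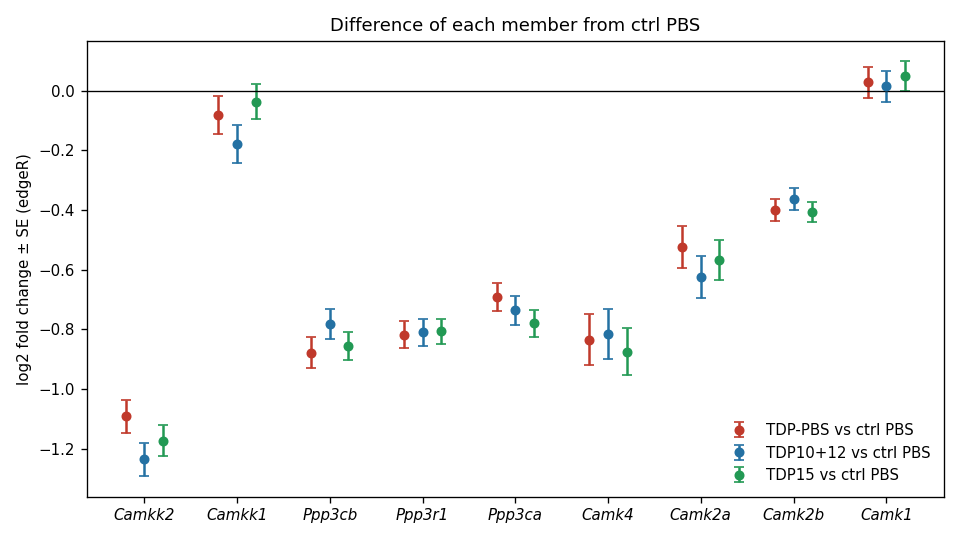
Log2 fold change against ctrl PBS (vertical axis, edgeR, 49 mice) of each gene in TDP-PBS, TDP10 + 12 and TDP15, with SE as error bars. Camkk2 lies lowest at -1.09 to -1.23, and calcineurin genes and Camk4 lie between -0.69 and -0.88. Camkk1 lies at -0.04 to -0.18 and Camk1 near 0.

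Markers of neurons moved with these genes. In the neuron list 4 of 5 genes fell in each rNLS8 group (edgeR, adjusted p under 0.05), among them Snap25, a fusion protein of synaptic vesicles, with a log2 fold change of -0.68 in TDP-PBS, and Rbfox3, which marks neuronal nuclei, did not pass there (-0.06, adjusted p = 0.29). The vesicular glutamate transporter Slc17a7, a marker of excitatory neurons, overlapped between genotypes, with 1472 to 2230 CPM in ctrl PBS and 1379 to 2144 CPM in rNLS8 mice. Of 5 astrocyte markers, Gfap rose in every rNLS8 group (log2 fold change 1.64 in TDP-PBS), and of 5 microglia markers 3 rose in each. The astrocyte marker Slc1a3 fell in TDP15 (-0.14, adjusted p = 0.021), and the microglia marker P2ry12 fell in TDP10 + 12 and TDP15 (-0.18 and -0.15, adjusted p = 0.014 and 0.026) and had -0.09 in TDP-PBS (adjusted p = 0.21). Among all genes tested, 21.6%, 20.0% and 23.2% passed as lower and 21.9%, 20.8% and 23.6% as higher in TDP-PBS, TDP10 + 12 and TDP15. The part of neuron number or glial share in the lower levels was not tested.

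Levels can be compared between genes per length, here as CPM per kb of exon in GENCODE M21. On this scale the order in ctrl PBS was Camk2a (mean 607.1), Ppp3r1 (127.9), Camk2b (97.4), Ppp3ca (82.1), Camk4 (61.5), Camkk1 (39.9), Camkk2 (25.3), Ppp3cb (22.8) and Camk1 (6.86). In rNLS8 mice Camk2a (408.7) and Camk1 (7.01) kept the ends of the order. Camk2b (74.3) and Ppp3r1 (72.9) came next to each other there, Camkk1 (37.4) was above Camk4 (34.3), and Ppp3cb (12.8) was above Camkk2 (11.3). Neighbours in the order whose mice overlapped were Camk2b with Ppp3ca, Ppp3ca with Camk4 and Camkk2 with Ppp3cb in ctrl PBS, and Camk2b with Ppp3r1, Ppp3ca with Camkk1, Camkk1 with Camk4 and Ppp3cb with Camkk2 in rNLS8 mice. The exon length used counts the exons of all annotated transcripts, so genes with long alternative exons, such as Camkk2, are set low.

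Ratios between 2 genes of the same mouse do not depend on library scaling. Camkk2 relative to Camkk1 was 0.68 to 1.11 on the log2 scale of CPM in ctrl PBS (mean 0.89 ± 0.11, SD) and -0.54 to 0.15 in rNLS8 mice (mean -0.18 ± 0.19), so that all 32 rNLS8 mice lay below every control mouse. By contrast, Ppp3r1 relative to the sum of Ppp3ca and Ppp3cb was -1.43 to -1.20 in ctrl PBS and -1.52 to -1.23 in rNLS8 mice, a difference of means of -0.09 in TDP-PBS, -0.06 in TDP10 + 12 and -0.01 in TDP15. Regulatory and catalytic subunit transcripts thus differed from the controls by like amounts, and 7 of the 32 rNLS8 mice lay below the control range. Ppp3cb relative to Ppp3ca was lower than in every control mouse in 7 of 10 TDP-PBS, 2 of 10 TDP10 + 12 and 1 of 12 TDP15 mice. Camk2b relative to Camk2a had means of -2.35 ± 0.22 in ctrl PBS and -2.16 ± 0.21 in rNLS8 mice, with wide overlap.

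**Figure D3:**
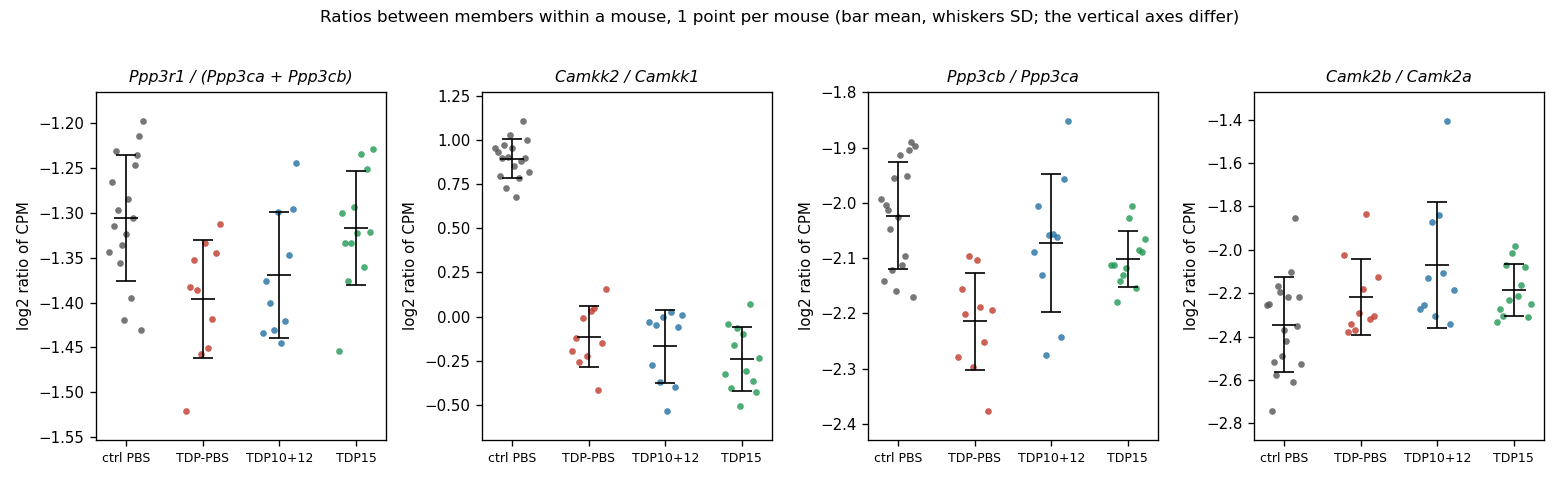
Log2 ratio of CPM between genes of the same mouse, 1 point per mouse, with the group mean as a bar and the SD as whiskers; the 4 vertical axes differ in range. The ratio of Camkk2 to Camkk1 separates the genotypes (0.68 to 1.11 against -0.54 to 0.15), and that of Ppp3r1 to its catalytic subunits overlaps.

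Whether vaccination altered these genes was asked by comparing the groups of rNLS8 mice with each other. The set was chosen on bigenic against control mice and not on these comparisons. None of the 9 genes passed in TDP10 + 12 against TDP-PBS, in TDP15 against TDP-PBS or in TDP10 + 12 against TDP15 (edgeR quasi-likelihood test, Benjamini-Hochberg over all genes), where 0% of all genes passed in each of the 3 comparisons, and DESeq2 and limma-voom also called 0 of the 9. At an unadjusted p under 0.05 there were 1, 0 and 1 of them, and 953, 552 and 1244 of all 18220 genes. The first was Camkk2, lower in TDP10 + 12 (mean 117.2 ± 12.4 CPM, SD, n = 10) than in TDP-PBS (129.5 ± 13.2, n = 10), with a log2 difference of -0.14 ± 0.06 (edgeR p = 0.019, adjusted p = 0.93). The other was Camkk1, lower in TDP10 + 12 (131.5 ± 12.6) than in TDP15 (145.0 ± 17.8, n = 12), with a log2 difference of -0.14 ± 0.07 (edgeR p = 0.042, adjusted p = 0.72). Both pairs of groups overlapped. The 95% intervals of the 9 genes together spanned log2 differences of -0.26 to 0.21 for TDP10 + 12 against TDP-PBS, -0.22 to 0.18 for TDP15 against TDP-PBS and -0.28 to 0.24 for TDP10 + 12 against TDP15. Ppp3r1 itself differed by 0.01 ± 0.05, 0.01 ± 0.05 and 0.00 ± 0.05 in these comparisons.

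Sex was tested in the PBS-treated mice. None of the 9 genes passed the test for a genotype difference that depends on sex (edgeR interaction term in 27 mice, smallest adjusted p = 0.74), with 0% of all 17363 genes passing. At an unadjusted p under 0.05 there were 2 of the 9 and 1097 of all genes. The 2 members were Camkk1 (male minus female log2 difference -0.31 ± 0.12, edgeR p = 0.015) and Camkk2 (-0.23 ± 0.10, edgeR p = 0.032). Camkk2 averaged 266.5 CPM in 10 female and 289.0 CPM in 7 male ctrl PBS mice, and 135.2 CPM in 4 female and 125.6 CPM in 6 male TDP-PBS mice. Camkk1 averaged 144.0 and 155.5 CPM in female and male ctrl PBS mice, and 151.7 and 133.1 CPM in female and male TDP-PBS mice. Among ctrl PBS mice alone no member passed for sex (smallest adjusted p = 0.999 by edgeR, with 0.0583% of all 17165 genes passing). At an unadjusted p under 0.05 there were 2 of the 9, namely Camkk2 and Ppp3ca, and 840 of all genes.

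Mice of a group differed little in Camkk2 and Ppp3r1, and a relation between both was tested in each group over log2 CPM. Pearson's r was 0.46 in ctrl PBS (17 mice, permutation p = 0.064, adjusted over 4 groups 0.13), with Spearman's rho of 0.47 (permutation p = 0.060, adjusted 0.12). In TDP-PBS r was 0.34 (10 mice, permutation p = 0.33, adjusted 0.44) and rho 0.72 (permutation p = 0.023, adjusted 0.092). In TDP10 + 12 r was 0.60 (10 mice, permutation p = 0.064, adjusted 0.13) and rho 0.50 (permutation p = 0.14, adjusted 0.19). TDP15 mice gave r = -0.08 (12 mice, permutation p = 0.81, adjusted 0.81) and rho = 0.06 (permutation p = 0.87, adjusted 0.87). No group passed after adjustment. When the 2 mice farthest from the median of Camkk2 were left out, r was 0.61, 0.78, 0.65 and -0.06 in the same order of groups. No r over all 49 mice is tested, since the genotypes form separate clusters.

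**Figure D4:**
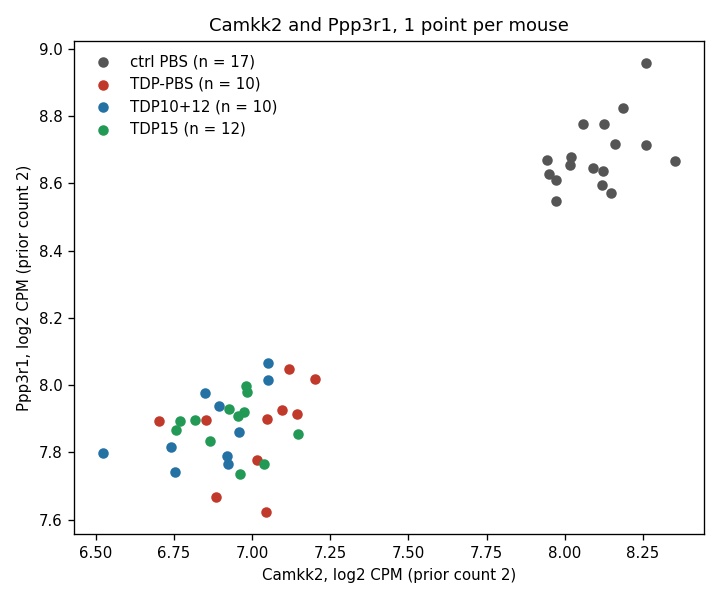
Ppp3r1 against Camkk2 in each mouse, both as log2 CPM with a prior count of 2, coloured by group. Control and rNLS8 mice form separate clusters. The relation was tested by permutation in each group on its own and passed in none after adjustment.

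Over values centred on the group means, the 3 calcineurin genes had r of 0.84 for Ppp3r1 and Ppp3cb, 0.75 for Ppp3r1 and Ppp3ca and 0.70 for Ppp3ca and Ppp3cb over 49 mice. Camk4 had r of 0.66, 0.56 and 0.53 with Ppp3r1, Ppp3ca and Ppp3cb. Camkk2 was most like Camk2a (0.73), and its r with the calcineurin genes was 0.31 to 0.38. These values are descriptions, as the genes share libraries and tissue composition.

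Outside the set, the genes whose log2 CPM was most like Camkk2 over the 49 mice were Zfp365 (r = 0.98), Lamp5 (0.98), Septin8 (0.98, a septin), Prkcb (0.97, a protein kinase C) and Nefl (0.97, the light neurofilament chain). Those most like Ppp3r1 were Mapk9 (0.98, the kinase JNK2), Mal2 (0.98), Kifap3 (0.98, a kinesin-2 subunit), Zfp365 (0.98) and Gnai1 (0.98, an inhibitory G protein subunit). All these points fall in the same pair of genotype clusters. Centred on group means, the 5 leading genes included Chrm3 (0.73), Cyfip2 (0.73), Tppp (0.73) and Fam217b (0.73) for Camkk2. For Ppp3r1 they included Pja2 (0.79), Smim13 (0.76), Gria2 (0.75, an AMPA receptor subunit) and Tmem30a (0.73).

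The pathway around the 9 genes was read from 51 other genes in 6 lists, of which 50 passed the filter on low counts. Against ctrl PBS, 23 of the 50 fell and 8 rose in TDP-PBS, 22 fell and 10 rose in TDP10 + 12, and 24 fell and 10 rose in TDP15 (edgeR, adjusted p under 0.05). These comparisons share the control mice. Of all genes tested, 21.6%, 20.0% and 23.2% fell and 21.9%, 20.8% and 23.6% rose in the same groups. The counts of each list below stand beside these shares and were not tested against them. Without the 9 mice with Eomes over 2 CPM, 23, 20 and 22 pathway genes fell and 9, 7 and 10 rose, and in TDP10 + 12 6606 of all 18233 genes passed in place of 7442 of 18220. Without mouse 301, 23, 21 and 22 fell and 10 rose in each group. The median log2 fold change of the 50 genes was -0.08, -0.12 and -0.12. Of the 50, 24 passed in all 3 groups, where 18 fell and 6 rose, and 32.8% of all genes tested passed in all 3. Another 11 of the 50 passed in none. Shares of all genes that fell in all 3, rose in all 3 or passed in none are not given here.

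Among other calcineurin subunits and regulators, 5, 5 and 6 of 8 fell and 0, 0 and 1 rose in TDP-PBS, TDP10 + 12 and TDP15. Ppp3cc, the third catalytic subunit, fell to 17.9 ± 1.57 CPM in rNLS8 mice from 20.6 ± 2.72 in ctrl PBS, with log2 fold changes of -0.26, -0.16 and -0.19 (adjusted p = 0.00026, 0.026 and 0.0035). Akap5, which anchors calcineurin at the postsynapse, fell most in the list at -0.56, -0.54 and -0.74 (adjusted p = 1.9e-07, 4.5e-07 and 3.4e-11). Every rNLS8 mouse was below every control mouse, but with almost no gap. The highest rNLS8 mouse and the lowest control mouse both had 43.0 CPM after rounding. The calcineurin inhibitors Rcan1 (-0.30, -0.32 and -0.37) and Rcan2 (-0.44, -0.53 and -0.44) fell in all 3 groups. Rcan3 passed in TDP15 alone (-0.04, -0.11 and -0.14, adjusted p = 0.67, 0.18 and 0.041), a difference between groups that was not tested. Ppp3r2, the testis form of the regulatory subunit, did not pass the filter, with at most 0.44 CPM in any mouse.

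In the list of other CaM kinases and their regulators 6, 5 and 5 of 12 fell and 1, 2 and 1 rose. The largest fall was that of Camk2n1, an endogenous CaMKII inhibitor, with log2 fold changes of -0.75, -0.87 and -0.80 (adjusted p = 1.5e-10, 3.4e-12 and 2.6e-12). Camk1d rose (0.23, 0.22 and 0.26, adjusted p = 0.00012, 0.00023 and 5.1e-06) from a mean of 146.9 CPM in ctrl PBS to 173.1 CPM in rNLS8 mice, while Camk1g, of the same CaMKI family, fell (-0.49, -0.69 and -0.58, adjusted p = 0.00011, 3.5e-07 and 1.7e-06). Of the other CaMKII subunits, Camk2d passed in TDP-PBS and TDP15 (-0.39 and -0.43) and had -0.12 in TDP10 + 12 (adjusted p = 0.39), and Camk2g passed in TDP-PBS and TDP10 + 12 (-0.15 and -0.26) and had -0.11 in TDP15 (adjusted p = 0.12). Pnck, the beta form of CaMKI, passed in no group (-0.07, 0.00 and -0.04, adjusted p = 0.58, 0.98 and 0.73).

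Calmodulin itself and the proteins that hold it at the membrane or buffer it fell in 5, 4 and 5 of 6 cases. The largest fall of this list in TDP-PBS was that of Nrgn, the postsynaptic calmodulin-binding protein neurogranin. Its log2 fold changes were -0.81, -0.92 and -0.83 in TDP-PBS, TDP10 + 12 and TDP15 (edgeR adjusted p = 3.0e-12, 7.1e-14 and 1.4e-13). Mean Nrgn was 1786 CPM in ctrl PBS and 991.6 CPM in rNLS8 mice, without overlap. Calm2 and Calm3, which encode the same calmodulin protein, differed in direction. Calm2 fell in TDP-PBS and TDP15 (-0.16 and -0.14, adjusted p = 0.014 and 0.022) with -0.11 in TDP10 + 12 (adjusted p = 0.11), and Calm3 rose in TDP-PBS and TDP15 (0.18 and 0.16, adjusted p = 0.0024 and 0.0036) with 0.08 in TDP10 + 12 (adjusted p = 0.20).

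Of 9 calcineurin targets 3, 3 and 4 fell and 2, 2 and 1 rose. Synj1, the lipid phosphatase of vesicle endocytosis, fell most (-0.56, -0.55 and -0.55, edgeR adjusted p = 2.0e-15, 4.3e-15 and 2.0e-16) and did not overlap between genotypes. The transcription factor Nfatc3 had the largest rise of this list in TDP-PBS. Its log2 fold changes were 0.27, 0.19 and 0.28 in TDP-PBS, TDP10 + 12 and TDP15 (edgeR adjusted p = 0.00027, 0.0091 and 7.2e-05). In the CREB branch 2, 3 and 1 of 8 fell and 2, 3 and 3 rose, led by the CREB coactivator Crtc1, which rose (0.39, 0.31 and 0.35, adjusted p = 1.4e-08, 1.8e-06 and 2.6e-08), and by Crem, which fell in TDP-PBS and TDP10 + 12 (-0.28 and -0.30) and had -0.20 in TDP15 (adjusted p = 0.085). In the AMPK branch, downstream of Camkk2, 2, 2 and 3 of 7 fell and 2, 3 and 3 rose. Of all genes tested, 21.6%, 20.0% and 23.2% fell and 21.9%, 20.8% and 23.6% rose. Nothing about Camkk2 is read from the counts of the CREB and AMPK branches. The catalytic AMPK subunit Prkaa2 rose most (0.42, 0.41 and 0.50, edgeR adjusted p = 1.2e-07, 3.2e-07 and 3.6e-10). The regulatory subunit Prkag2 had the largest fall of the branch in TDP-PBS (-0.24, edgeR adjusted p = 0.00039). It had -0.09 in TDP10 + 12 (adjusted p = 0.21) and -0.18 in TDP15 (adjusted p = 0.0038).

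**Figure D5:**
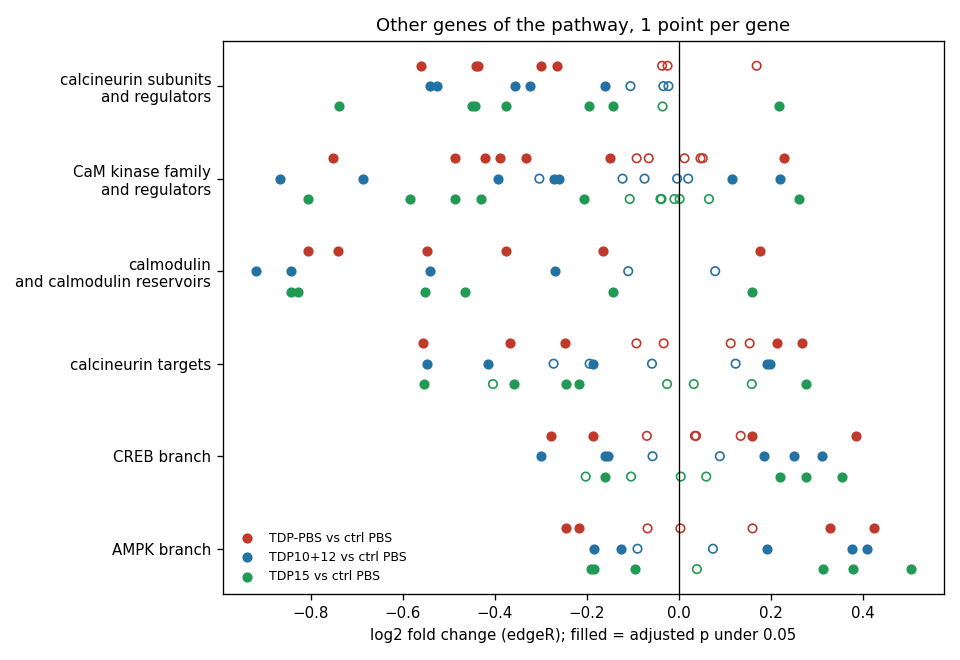
Log2 fold change against ctrl PBS (horizontal axis, edgeR) of the 50 tested pathway genes by list, 1 point per gene and group, filled where the adjusted p is under 0.05. Points of the calmodulin list lie mostly left of 0, down to Nrgn at -0.92, and those of the CREB and AMPK branches lie on both sides.

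Genes beside Camkk2 and Ppp3r1 on the chromosome did not share one direction. Within 250 kb of Camkk2, 9 of 21 annotated genes were tested and 6 passed in all 3 rNLS8 groups (edgeR), as did 32.8% of all genes tested. Of the 6, Atp2a2 (-0.61, -0.62 and -0.61), Ift81 (-0.35, -0.27 and -0.29) and Kdm2b (-0.20, -0.15 and -0.26) fell, and P2rx7 (0.42, 0.31 and 0.30), Rnf34 (0.15, 0.15 and 0.18) and Orai1 (0.26, 0.27 and 0.30) rose. Atp2a2 encodes the calcium pump of the endoplasmic reticulum and Orai1 a store-operated calcium channel. Within 250 kb of Ppp3r1, 6 of 11 annotated genes were tested and 4 passed in all 3 groups, of which Cnrip1 fell (-0.39, -0.37 and -0.37) and Plek (0.69, 0.54 and 0.73), Pno1 (0.34, 0.26 and 0.24) and the overlapping Wdr92 (0.34, 0.45 and 0.38) rose.

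Sequences are shown for 2 contrasts in these values, the paralogs Camkk2 and Camkk1, of which one was far lower in rNLS8 mice and the other not, and the calcineurin subunits Ppp3r1 and Ppp3cb, which were lower by like amounts. RefSeq promoters (GRCm38.p6, 250 bases before to 50 bases after the gene start) were on hand for 6 of the 9 genes, and for Camkk2 and Camkk1 the start they use lies inside the annotated span of the gene. They are printed 5′ to 3′ on the gene's strand, at chr5:122779361-122779660 (minus strand) for Camkk2, chr11:73018738-73019037 (plus) for Camkk1, chr11:17159048-17159347 (plus) for Ppp3r1 and chr14:20546524-20546823 (minus) for Ppp3cb. Capitals mark the GC box GGGCGG, the CAAT box CCAAT and the core of the CREB site, TGACG, on either strand.
Camkk2: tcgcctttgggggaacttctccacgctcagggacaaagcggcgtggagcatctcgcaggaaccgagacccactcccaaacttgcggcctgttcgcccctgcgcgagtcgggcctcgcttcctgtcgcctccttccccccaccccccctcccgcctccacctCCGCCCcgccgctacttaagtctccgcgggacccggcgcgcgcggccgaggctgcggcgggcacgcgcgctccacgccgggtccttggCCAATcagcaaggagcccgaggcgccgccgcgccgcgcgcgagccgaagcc
Camkk1: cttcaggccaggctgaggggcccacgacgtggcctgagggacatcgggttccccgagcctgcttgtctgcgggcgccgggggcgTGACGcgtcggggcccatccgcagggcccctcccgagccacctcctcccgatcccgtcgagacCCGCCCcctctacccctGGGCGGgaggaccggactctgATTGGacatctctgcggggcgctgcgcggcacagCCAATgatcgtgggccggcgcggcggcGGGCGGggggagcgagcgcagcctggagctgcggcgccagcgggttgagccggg
Ppp3r1: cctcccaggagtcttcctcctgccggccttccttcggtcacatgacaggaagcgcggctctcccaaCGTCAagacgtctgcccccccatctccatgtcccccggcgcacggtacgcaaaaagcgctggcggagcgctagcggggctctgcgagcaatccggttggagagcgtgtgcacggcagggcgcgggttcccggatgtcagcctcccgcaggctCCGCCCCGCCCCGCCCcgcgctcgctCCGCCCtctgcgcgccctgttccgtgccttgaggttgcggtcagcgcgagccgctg
Ppp3cb: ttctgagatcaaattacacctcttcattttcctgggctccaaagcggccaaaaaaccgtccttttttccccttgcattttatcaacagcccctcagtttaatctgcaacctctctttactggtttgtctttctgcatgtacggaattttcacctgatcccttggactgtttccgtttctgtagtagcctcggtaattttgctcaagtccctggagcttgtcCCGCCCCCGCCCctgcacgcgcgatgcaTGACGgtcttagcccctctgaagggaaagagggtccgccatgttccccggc

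The Camkk2 promoter held 1 GGGCGG and 1 CCAAT, and that of Camkk1 3 GGGCGG, 2 CCAAT and 1 TGACG. The Ppp3r1 promoter held 4 GGGCGG, which overlap in part, and 1 TGACG, and that of Ppp3cb 2 GGGCGG, side by side, and 1 TGACG. Among the 17173 promoters of genes tested, 56.1% held GGGCGG, 36.9% CCAAT and 27.6% TGACG on either strand. The full palindrome TGACGTCA, which contains TGACG, was in 2.63% of them and in none of these 4 windows. GC content was 73.3% for Camkk2, 75.3% for Camkk1, 70.7% for Ppp3r1 and 51.0% for Ppp3cb, against a median of 59.7%. A match of letters describes the window and is not evidence that a factor binds there.

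TDP-43 binds RNA at runs of UG, so runs of at least 6 TG repeats were looked for on the sense strand of the GENCODE M21 transcripts, where they occurred in 12.6% of 16757 tested genes. Of the 9 genes, Camkk2 and Ppp3cb held one. The run of Camkk2 lies in the 3′ untranslated region of the transcript Camkk2-201 (chr5:122733408-122733419, minus strand) and is shown with 9 bases on either side, with the repeats in capitals.
Camkk2: ctttttaagTGTGTGTGTGTGtttttttta

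The run of Ppp3cb, with 7 repeats, lies in a transcript with a retained intron (chr14:20515774-20515787, minus strand). Introns were not searched, and binding was not measured in these libraries. By span, 8 of the 9 genes were longer than the median tested gene (19751 bp), with Ppp3ca (268014 bp) and Camk4 (260827 bp) longer than 96.5% and 96.4% of tested genes. Camkk2 (61143 bp) was longer than 78.7%, Ppp3r1 (41083 bp) longer than 70.0%, and Camk1 (9799 bp) longer than 31.3%.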

How the data were processed

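RNA from about 30 mg of neocortex of 49 mice, 1 library per mouse, was sequenced (100 bp, paired ends) and aligned by the authors to mm10 (GRCm38.p6). The submitters' processing notes name HISAT, HISAT2, Bowtie, Bowtie2 and RSEM without their roles, and the paper names DESeq2; the annotation and strand setting are not given in the sources used here. The authors deposited unnormalized whole-number counts for each gene and mouse. Since strand is not stated, reads of genes that overlap on opposite strands cannot be told apart (Camk1 with Ogg1, which reached at most 8.00 CPM).

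All 49 mice entered one edgeR 4.0.16 fit (glmQLFit, glmQLFTest, two-sided, R 4.3.3) with TMM factors, after filterByExpr with groups had removed low genes (minimum count 10, minimum total 15). The threshold was an adjusted p under 0.05. SEs were derived from the F statistic.  Log2 CPM used a prior count of 2, and permutation tests 100000 resamples. The steps were tested on simulated data. Floors of 3 counts cover counting error only. Alternatives were DESeq2 1.42.0, limma-voom (limma 3.58.1), other scalings, filters, sex as a covariate and fits of 2 groups, and, added after the data had been seen, fits without mouse 301 and without mice with Eomes over 2 CPM.

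The 9 genes and all lists were chosen with earlier results of these data known. Besides the members, genes were named as the largest rise and fall of each list in TDP-PBS, as other subunits or family members, as the 5 most like Camkk2 or Ppp3r1, as neighbours within 250 kb that passed in all 3 groups, or as markers and overlapping genes beside a result they touch. TG runs were to be searched in whole genes but were searched in transcripts, since no genome sequence was used here. Promoter motifs were chosen after the data had been seen. Values of some single genes that the rule would name are not reported here.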

Additional observations from a re-analysis of the deposited data

Results flagged for a closer look

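Ppp3ca in mouse 47, a TDP10 + 12 female, stood apart from its group. It had 586.3 CPM, above the other 9 mice of TDP10 + 12 by 0.47 of the whole range of the group (critical value 0.466 in groups of 10), and it was below every ctrl PBS mouse. The same mouse also had the highest Ppp3cb and Ppp3r1 of its group (137.9 and 268.0 CPM). It is 1 of 26 sets of values tested in this way, of which chance flags about 1 in 20.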

How the results depend on the processing

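All 270 values of member log2 fold changes against ctrl PBS kept their sign under the alternatives and stayed within the spread between mice of a group. The largest shift was 0.06 (Camk2a in TDP10 + 12, without mouse 301). Without the mice with Eomes over 2 CPM it was 0.05 and with limma-voom 0.01. The counts of pathway genes past the threshold were 29 to 33 for TDP-PBS, 27 to 32 for TDP10 + 12 and 31 to 34 for TDP15. In the tests among rNLS8 groups and of sex, 0 of the 9 genes passed under every alternative run. The relation between Camkk2 and Ppp3r1 passed in no group under the alternatives. Its r was 0.45 to 0.50 for ctrl PBS mice, 0.26 to 0.34 for TDP-PBS, 0.60 to 0.62 for TDP10 + 12 and -0.10 to -0.07 for TDP15. Leaving out the 2 mice of each group farthest from the median of Camkk2 gave r outside these ranges. It was then 0.61 in ctrl PBS, 0.78 in TDP-PBS, 0.65 in TDP10 + 12 and -0.06 in TDP15. Per kb of exon, the ratio of Ppp3r1 to its catalytic subunits differed from ctrl PBS by -0.09, -0.06 and -0.01, as with CPM. No paired analysis was possible, since every mouse is a separate animal and the labels used here do not give its litter. The paper states that littermates were distributed over the cohorts at random, so mice may share a litter, which could not enter the fit. At these depths all 9 genes had at least 33.0 CPM in every mouse, far above the 0.165 CPM or less that 3 counts stand for.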
